A study of Mus musculus with 48 samples.

Results

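Reactive astrocyte genes are transcripts that mark astrocytes responding to injury, and 30 of them are described here in 4 sorted cell types of the mouse brain after stroke. They were chosen by name from the published reactive astrocyte panel. The pan-reactive class holds 10 genes (*Lcn2*, *Steap4*, *S1pr3*, *Hspb1*, *Cxcl10*, *Cp*, *Serpina3n*, *Aspg*, *Vim* and *Gfap*). The A1 class holds 9 (*H2-T23*, *H2-D1*, *Ggta1*, *Iigp1*, *Gbp2*, *Fbln5*, *Fkbp5*, *Srgn* and *Amigo2*), and the A2 class 11 (*Tgm1*, *Ptx3*, *S100a10*, *Sphk1*, *Cd109*, *Ptgs2*, *Emp1*, *Slc10a6*, *Tm4sf1*, *B3gnt5* and *Cd14*). All 30 were found among the 24973 genes of the table.

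Astrocytes respond to injury with larger processes and more intermediate filament protein, and they secrete acute-phase proteins, protease inhibitors and chemokines. The panel sorts the transcripts of this response into a shared class and into classes named after the stimulus: A1 genes were defined by systemic endotoxin and can be induced by microglial IL-1 alpha, TNF and C1q, while A2 genes were defined by occlusion of the middle cerebral artery. Many of these genes are also used by vascular and immune cells, since STAT3, NF-kappa B and interferon signalling act in most cell types.

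The study sequenced RNA of 4 sorted cell types (endothelial cells, pericytes, astrocytes, microglia) taken from adult male C57BL/6 wild-type mice after 1 h of transient occlusion of the middle cerebral artery and 23 h of reperfusion, 24 h in all. Each replicate pooled 3 to 4 mice, and the contralateral hemispheres of the same mice served as the control, without sham-operated animals. Both hemispheres of 4 cell types give 8 groups of 6 replicates, 48 libraries in all. Astrocytes were gated as ACSA2high cells without CD45, NG2, PDGFRb or VECAD. Microglia were CD45low and CD11b+, and endothelial cells were VECAD+ without CD45, ACSA2, NG2 or PDGFRb. Pericytes carried both NG2 and PDGFRb without CD45, ACSA2 or VECAD. Values are normalized counts, that is, reads on a gene divided by a size factor of the library and rounded, with library sums of 10549900 to 16942165. The steps between low values put the reads on genes at 4900000 to 20200000 (median 11950000). A floor of 3 reads was worth 7 normalized counts or fewer, which allows for counting error and for no other source.

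The titles and the column names disagree on the cell type of 12 libraries, the ipsilateral pericytes and microglia. The groups here follow the column names. The summed level of 10 microglia markers was 211102 to 374695 in the ipsilateral libraries named microglia in this way and 703 to 58174 in those named pericytes, and 10 pericyte markers summed to 41501 to 170803 in the latter and 477 to 3341 in the former. Results on pericytes and microglia rest on that choice. So do comparisons of other cell types with them in the ipsilateral hemisphere, the interactions with them and the joint fit of 48 libraries, while the separate fits of astrocytes and of endothelial cells use none of these 12 libraries.

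The astrocyte libraries carried the markers of their cell type, and also RNA of other lineages. All 10 astrocyte markers were in the table, with a summed level of 298919 to 519804 in contralateral and 150184 to 439257 in ipsilateral astrocytes, and the most abundant was *Aldoc*. The 8 oligodendrocyte lineage markers summed to between 37991 and 397051 in the same libraries, and in 3 of 12 libraries this sum exceeded that of the astrocyte markers. Microglia markers summed to 2130 to 29212 in astrocytes, 952 to 47571 in endothelial cells and 599 to 58174 in pericytes. Replicates 1 to 4 and replicates 5 and 6 stood apart in these sums, a split that the labels do not name. In ipsilateral pericytes the microglia sum was 13416 to 58174 in replicates 1 to 4 and 916 and 703 in replicates 5 and 6. The 6 ependymal markers, led by *Tmem212*, went the other way in contralateral astrocytes, with 1450 to 3425 in replicates 1 to 4 and 11372 and 20822 in replicates 5 and 6. After stroke this sum was lower in 6 of 6 pools of astrocytes (776 to 1223, and 8082 and 12544), with 0 of 6 markers positive and *Rarres2* and *Ccdc153* called down with the block. The astrocyte markers themselves were positive for 0 of 10, with a median log2 change of -0.48 and 0 called (limma, 2 with an unadjusted p under 0.05).

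In contralateral astrocytes the panel already spanned a wide range of expression. Per kilobase of exon, the mean level of normalized counts was highest for *Serpina3n* (2864), *Vim* (1813), *Gfap* (1613) and *H2-D1* (906). It was lowest for *Sphk1* (10.4), *Iigp1* (3.01) and *B3gnt5* (2.24). Some of these means, and so the order, depend on replicate 6. *Vim* had 32860 normalized counts there and 1457 to 10668 in the other libraries. For *Sphk1* the values were 216 and 0 to 45, and for *Iigp1* 58 and 0 to 20. In ipsilateral astrocytes the order per kilobase was led by *Serpina3n* (10762), *Gfap* (3497), *Cd14* (3398) and *Vim* (2149), and *Iigp1* (14.9) was at its end. The place of *Vim* again depends on replicate 6, at 29945 normalized counts where the other libraries had 2308 to 13797.

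Not all of the panel had its highest level in astrocytes. In a limma fit of all 48 libraries, a gene was called highest in a cell type when it exceeded each of the other 3 by at least 1.5-fold with an adjusted p of at most 0.05. In the contralateral hemisphere, 4 members were highest in astrocytes (*Gfap*, *Serpina3n*, *Ptx3* and *Aspg*), as were 14.4% of the 15003 genes tested. Endothelial cells held the highest level of 5 members (*Lcn2*, *Emp1*, *S100a10*, *Iigp1* and *H2-D1*), against 5.5% of all genes. Pericytes held that of 4 (*B3gnt5*, *Vim*, *Amigo2* and *S1pr3*), against 6.28%, and microglia that of 3 (*Fkbp5*, *Cxcl10* and *Cd14*), against 9.68%. In the ipsilateral hemisphere, astrocytes were highest for 6 members, the same 4 and *Tgm1* and *B3gnt5*, against 14.9% of all genes. The counts were 3 in endothelial cells (*Lcn2*, *Emp1* and *H2-D1*) against 4.4%, 1 in pericytes (*S1pr3*) against 4.79%, and 2 in microglia (*Cxcl10* and *Cd14*) against 7.28%.

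*Lcn2* shows how far an astrocyte label can lie from the main site of a transcript. It ranged from 1024 to 16239 normalized counts in contralateral endothelial cells, with a median of 5844.5, and from 43 to 718 in contralateral astrocytes, with a median of 269. The groups did not overlap, and the level was 4.69 higher in endothelial cells on the log2 scale (adjusted p = 2.25e-08). *S1pr3*, a receptor for sphingosine 1-phosphate, had 14740 to 20551 normalized counts in contralateral pericytes (median 16250.5) and 133 to 2992 in astrocytes (median 352), 4.97 lower (adjusted p = 1.8e-05). *Aspg*, an asparaginase, was listed at 0 in all 6 contralateral libraries of endothelial cells and all 6 of microglia. *Ptx3*, a secreted pentraxin of innate immunity, was likewise at 0 in those 12 libraries. The heatmap of median levels gives all 30 genes in the 8 groups.

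**Figure D1:**
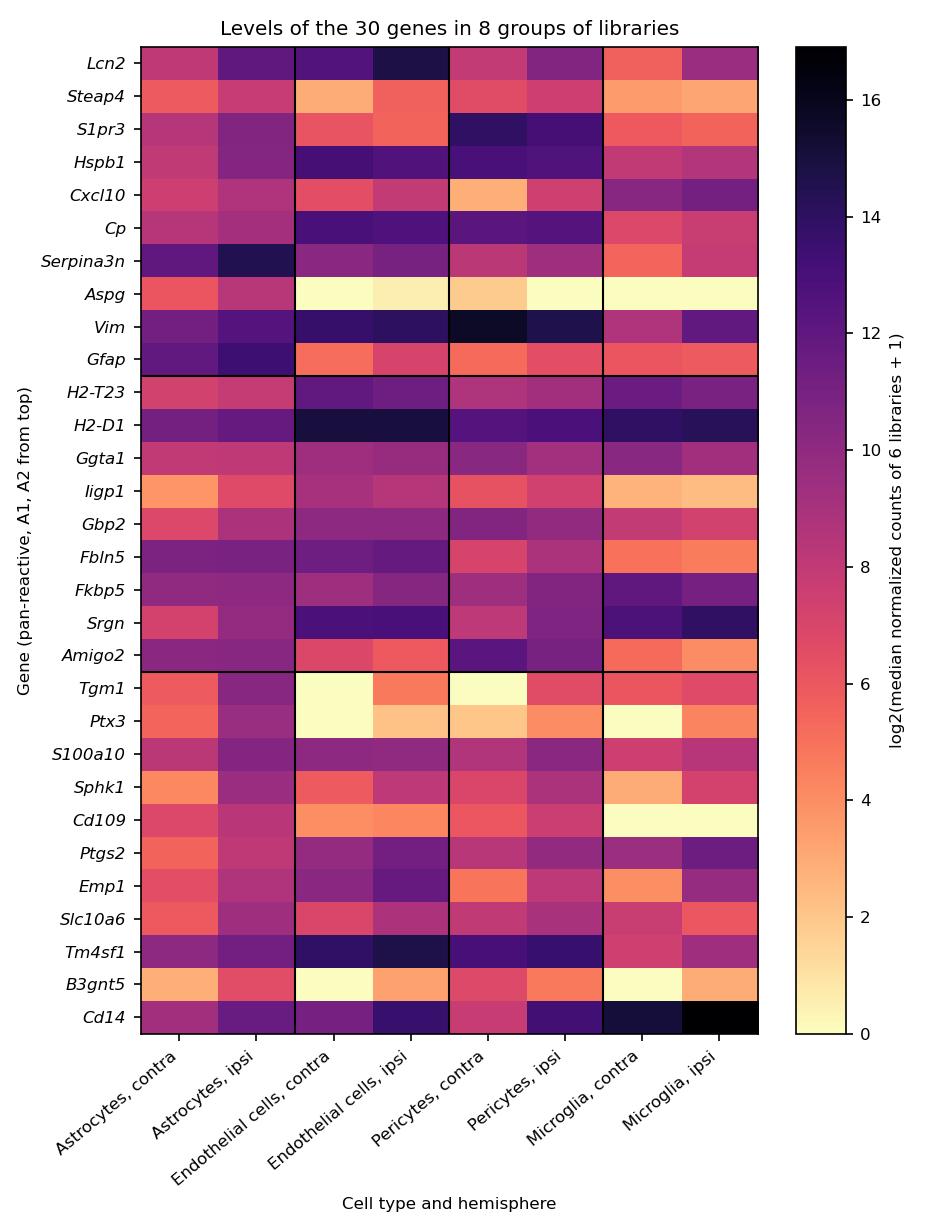
Median normalized counts of 6 libraries, as log2(median + 1), for the 30 genes (vertical axis) in the 8 groups of cell type and hemisphere (horizontal axis). *Lcn2* is darkest in endothelial cells (medians 5844.5 and 27934.5) and *Cd14* in microglia (34498 and 122924).

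Ipsilateral and contralateral libraries were compared by limma, a linear model with moderated variance, on log2(value + 1), separately in the 12 libraries of a cell type and on genes averaging 10 or more there. A gene was called when the adjusted p was at most 0.05, the change at least 1.5-fold, and each of the 6 libraries of 1 hemisphere or the other above 10. Both hemispheres came from the same pools of mice, and they were paired here by replicate number. A second fit with that number as a term, the replicate block, is given beside the first where it changes a call. Counts of pools that were higher or lower rest on this pairing too. The p values measure the spread between these pools, and in such sorted bulk samples fewer cells of a type and less RNA per cell cannot be told apart.

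In astrocytes, most of the panel was higher on the ipsilateral side. All 30 members were tested, and 28 had a positive log2 change, with a median of 2.08 where all genes tested had a median of -0.06. Without the block, 5 members rose (*Lcn2*, *Serpina3n*, *Ptx3*, *Sphk1* and *Slc10a6*) and 0 fell, where 0.334% of 15264 genes rose and 0.00655% fell, and 19 members had an unadjusted p under 0.05 in limma. With the block, 16 rose and 0 fell, where 1.25% of genes rose and 0.334% fell. The added members were *S1pr3*, *Hspb1*, *Aspg*, *Gfap*, *Srgn*, *Tgm1*, *S100a10*, *Ptgs2*, *Emp1*, *B3gnt5* and *Cd14*. The number without the block depends on single pools: it was 2 without any 1 of replicates 1 to 5, 8 without replicate 6, and 9 with only replicates 1 to 4. With only replicates 5 and 6, which leaves 2 libraries a hemisphere, it was 0, and the median change was 1.08. The mean change over the pools was above 0 for 28 of 30 members in replicates 1 to 4 and for 28 in replicates 5 and 6.

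**Figure D2:**
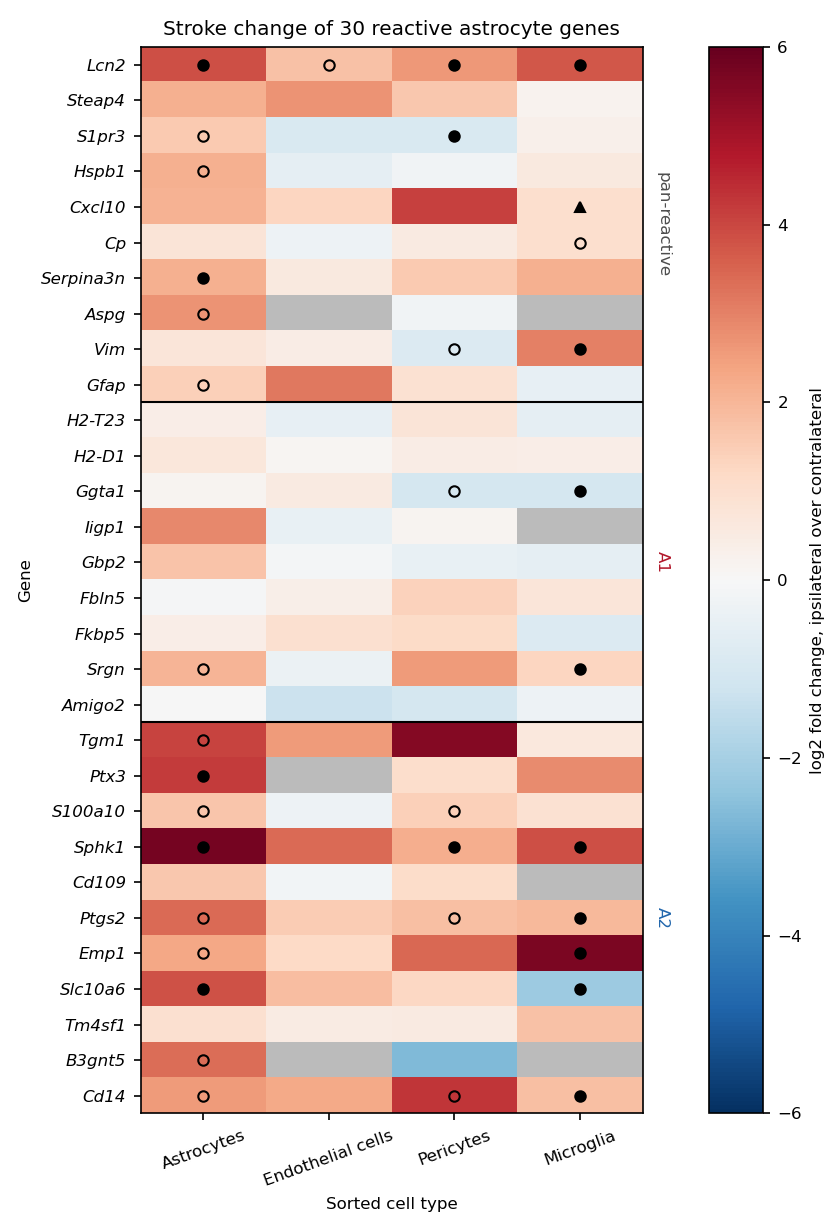
Log2 fold change, ipsilateral over contralateral, of the 30 genes (vertical axis) in 4 sorted cell types (horizontal axis). A filled dot marks a gene called with and without the replicate block, an open ring only with it and a triangle only without it, and grey means not tested. Marks are densest in astrocytes, where 16 genes carry a mark.

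Promoter windows from 250 bases before to 50 after the start (RefSeq, GRCm38.p6) were found for 26 of 30 members, the others being *Iigp1*, *S100a10*, *Cd109* and *Cd14*. Both strands were searched for the core letters of STAT sites, which 8.3% of 32851 windows hold, and of NF-kappa B (1.63%), interferon response (3.44%), AP-1 (7.81%), CRE (1.79%) and heat shock sites (0.603%). At least 1 window of 5 members held the STAT letters (*Steap4*, *Gfap*, *Tgm1*, *Sphk1* and *Emp1*), where 9.55% of 27025 genes do. The NF-kappa B letters were in 3 members (*Steap4*, *Serpina3n* and *Vim*; 1.89% of genes), and the AP-1 letters in 5 (*Cxcl10*, *Cp*, *Gbp2*, *Sphk1* and *Emp1*; 8.97%). The interferon letters were in 7 (*Cxcl10*, *H2-T23*, *Gbp2*, *Fbln5*, *Srgn*, *Tgm1* and *Tm4sf1*; 3.99%). The CRE and heat shock letters were in 0 of 26, against 2.03% and 0.662% of genes. Of the 16 members that rose in astrocytes in at least 1 of the fits, 14 have a window, and 4 of these hold STAT letters, 1 NF-kappa B letters and 2 AP-1 letters. Among them *Srgn* and *Tgm1* hold the interferon letters. A match is a description of these letters, and binding was not measured. The 5 windows below belong to members that rose in astrocytes in at least 1 of the fits and hold STAT, NF-kappa B or AP-1 letters, which stand in capitals, as do the interferon letters of *Tgm1*. *Serpina3n* is at chr12:104406458-104406757 on the plus strand with NF-kappa B letters. *Gfap* is at chr11:102897151-102897450 on the minus strand, with STAT letters that span the start. *Tgm1* is at chr14:55713443-55713742 on the minus strand, with the interferon letters first and STAT letters at 2 further places. *Sphk1* is at chr11:116531587-116531886 on the plus strand, 1 of 5 windows of that gene, with AP-1 and then STAT letters. *Emp1* is at chr6:135362681-135362980 on the plus strand, with AP-1 and STAT letters, then a second pair in which they overlap.
Serpina3n: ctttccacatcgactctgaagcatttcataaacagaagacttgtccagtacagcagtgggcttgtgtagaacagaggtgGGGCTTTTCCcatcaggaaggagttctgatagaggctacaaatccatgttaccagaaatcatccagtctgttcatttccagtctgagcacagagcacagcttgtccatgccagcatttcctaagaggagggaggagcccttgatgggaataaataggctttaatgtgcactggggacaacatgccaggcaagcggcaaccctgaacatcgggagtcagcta
Gfap: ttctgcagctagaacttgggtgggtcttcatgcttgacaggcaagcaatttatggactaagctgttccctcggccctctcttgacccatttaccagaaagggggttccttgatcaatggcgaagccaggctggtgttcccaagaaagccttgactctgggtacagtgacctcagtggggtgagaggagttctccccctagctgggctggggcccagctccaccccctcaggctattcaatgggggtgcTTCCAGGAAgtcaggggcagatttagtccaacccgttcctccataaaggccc
Tgm1: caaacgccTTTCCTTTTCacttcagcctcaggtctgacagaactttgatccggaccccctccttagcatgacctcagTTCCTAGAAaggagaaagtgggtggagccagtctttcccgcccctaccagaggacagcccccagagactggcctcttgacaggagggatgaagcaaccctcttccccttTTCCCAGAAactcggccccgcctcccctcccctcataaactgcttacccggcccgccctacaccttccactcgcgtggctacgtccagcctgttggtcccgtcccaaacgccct
Sphk1: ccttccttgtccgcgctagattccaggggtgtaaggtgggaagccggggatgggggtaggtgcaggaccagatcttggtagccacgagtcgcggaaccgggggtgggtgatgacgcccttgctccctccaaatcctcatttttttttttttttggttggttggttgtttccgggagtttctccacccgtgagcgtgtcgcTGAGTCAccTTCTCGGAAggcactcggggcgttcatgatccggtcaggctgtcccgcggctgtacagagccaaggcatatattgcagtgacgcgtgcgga
Emp1: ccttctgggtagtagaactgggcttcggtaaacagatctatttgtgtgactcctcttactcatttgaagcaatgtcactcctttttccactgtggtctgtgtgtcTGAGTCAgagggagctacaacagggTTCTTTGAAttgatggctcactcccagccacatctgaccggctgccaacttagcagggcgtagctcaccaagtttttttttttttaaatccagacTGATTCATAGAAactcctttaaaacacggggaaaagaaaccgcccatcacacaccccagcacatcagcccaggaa

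Among the pan-reactive genes, a secreted lipocalin and a secreted protease inhibitor were higher in the astrocyte libraries of every pool. With the block, the filament protein *Gfap* was called as well. Of 10 members, 2 rose without the block and 6 with it, where 0.334% and 1.25% of all genes rose. In either fit 0 fell, and 7 had an unadjusted p under 0.05 (limma). The median log2 change of the class was 2.11. *Lcn2* (ENSMUSG00000026822, chromosome 2 of GRCm38, 32384633 to 32387797), which binds iron-carrying siderophores, had 43 to 718 normalized counts in contralateral astrocytes (median 269) and 1931 to 4763 in ipsilateral ones (median 4110.5). Every ipsilateral library lay above every contralateral library, with the lowest contralateral value in replicate 1. The change was 3.89 on the log2 scale (standard error 0.51, adjusted p = 0.00379) in 6 of 6 pools, and the call held in both fits and without any 1 replicate. In the same libraries neutrophil markers had a median log2 change of 3.84. Endothelial markers had one of -0.27, with 4 of 9 positive. The part of RNA from such cells in the rise of *Lcn2* was not tested. *Serpina3n* (ENSMUSG00000021091, chromosome 12, 104406729 to 104414329), an inhibitor of serine proteases, had 2395 to 13914 normalized counts in contralateral astrocytes (median 4059) and 15027 to 25540 in ipsilateral ones (median 23061). The groups did not overlap, although contralateral replicate 6 came close to ipsilateral replicate 1, which held the lowest ipsilateral value. The change was 2.15 on the log2 scale (standard error 0.35, adjusted p = 0.0178, 0.00414 with the block), with 6 of 6 pools higher. The call of *Serpina3n* was lost without any 1 of replicates 1 to 5 (adjusted p from 0.0604 to 0.162), without a filter on low values (0.0709) and in the joint fit of 48 libraries (0.372).

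*Gfap* (ENSMUSG00000020932, chromosome 11, 102887336 to 102897200), the intermediate filament protein that defines reactive astrocytes in tissue, had 2213 to 17352 normalized counts in contralateral astrocytes (median 3823) and 8805 to 28937 in ipsilateral ones (median 10631). The hemispheres overlapped because contralateral replicates 5 and 6 were above the ipsilateral libraries of the other pools, while within each of 6 pools the ipsilateral library was higher. The change was 1.43 on the log2 scale (adjusted p = 0.402, 0.0114 with the block). *Hspb1*, a small heat shock protein, ranged from 177 to 1628 (median 262) in contralateral and from 884 to 2877 (median 1437.5) in ipsilateral astrocytes. Only contralateral replicate 6 reached into the ipsilateral range. The change of *Hspb1* was 2.13 on the log2 scale in 6 of 6 pools (adjusted p = 0.11, 0.00161 with the block). Without replicate 6 in both hemispheres it was 2.39 (adjusted p = 0.0015). Leaving out only the contralateral library, a choice made after its values were seen, gave 2.59 (adjusted p = 0.00128). *Aspg* went from 7 to 288 normalized counts (median 68.5) to 268 to 555 (median 330.5), with an overlap made by contralateral replicate 3 and a change of 2.72 (adjusted p = 0.122, 0.0284 with the block) in 6 of 6 pools. *S1pr3* was at 133 to 2992 (median 352) and 562 to 4680 (median 1451.5), again with replicates 5 and 6 highest in both hemispheres. It was 1.57 higher on the log2 scale (adjusted p = 0.575, 0.0254 with the block) in 6 of 6 pools. Pericyte markers in contralateral astrocytes summed to 2051 to 7772 in replicates 1 to 4 and to 18128 and 11853 in replicates 5 and 6. The ipsilateral sums were 1572 to 4165, and 9033 and 7349. The change of these markers was positive for 1 of 10 (median -0.64), and their part in that of *S1pr3* was not tested.

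The other pan-reactive genes did not pass in either fit. *Vim*, the second filament protein of the class, had 1457 to 32860 normalized counts in contralateral astrocytes (median 2293) and 2308 to 29945 in ipsilateral ones (median 5586.5). Its highest value of all 12 libraries was in contralateral replicate 6, and the change was 0.74 (adjusted p = 0.827, 0.148 with the block), higher in 5 of 6 pools. *Cxcl10*, an interferon-induced chemokine, had a change of 2.11 (adjusted p = 0.433, 0.114 with the block) and *Steap4*, a metalloreductase, 2.12 (0.535, 0.055), each in 6 of 6 pools. *Cp*, a ferroxidase that carries copper, had 76 to 1373 contralateral and 169 to 1474 ipsilateral normalized counts, with the same replicates 2, 5 and 6 high on both sides and a change of 0.75 (0.837, 0.165) in 5 of 6 pools.

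**Figure D3:**
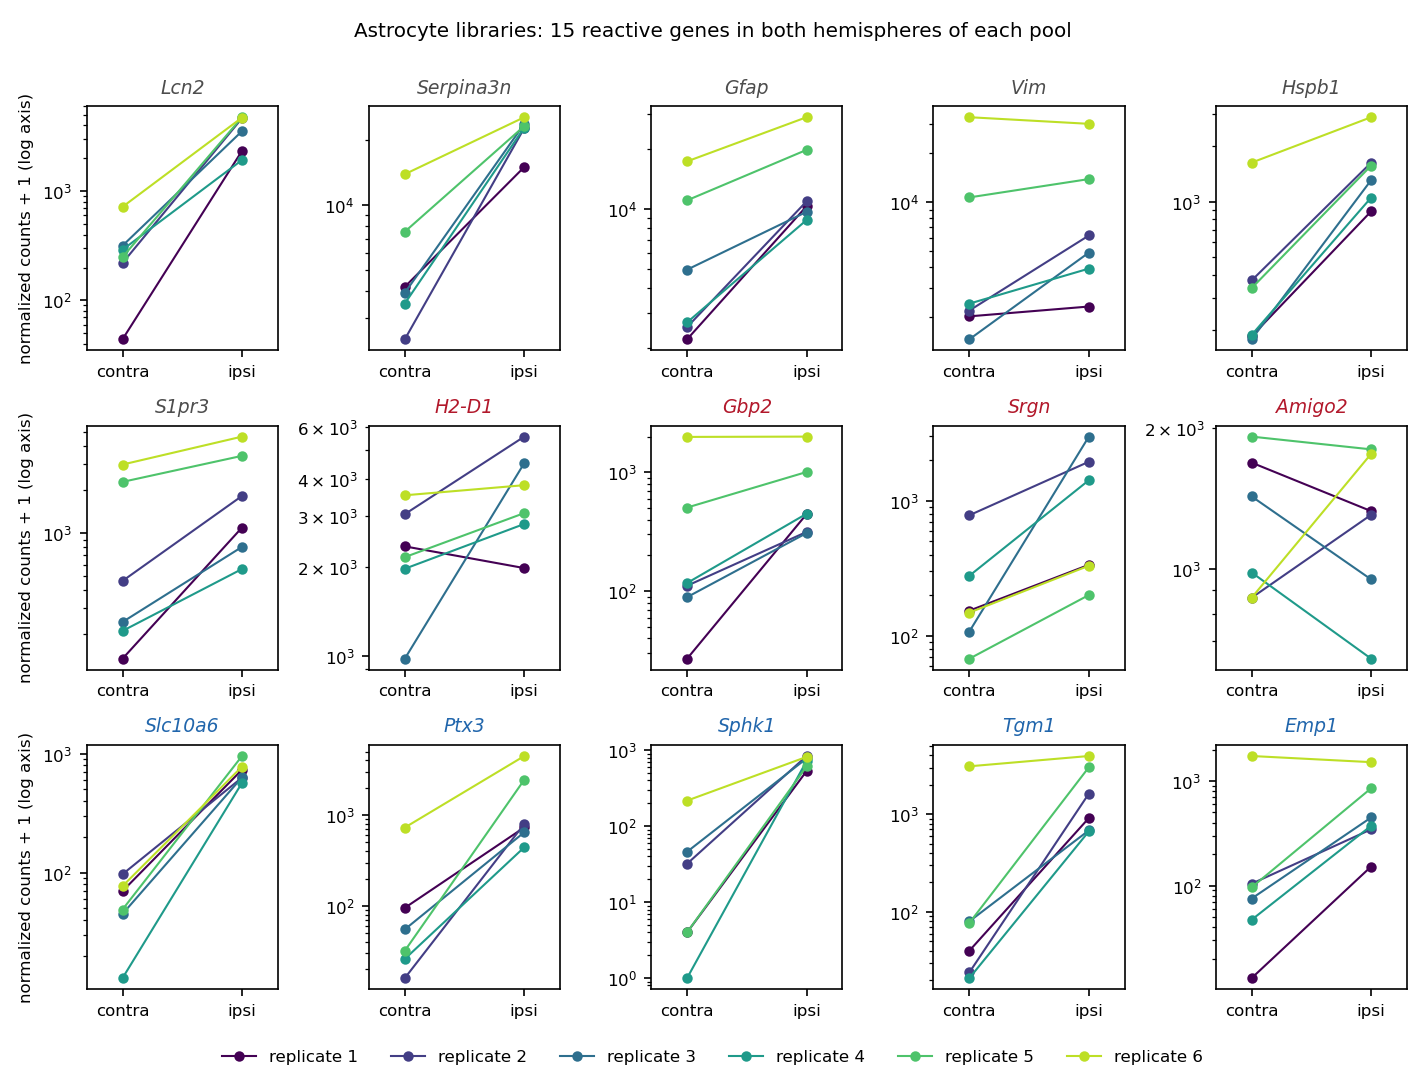
Normalized counts + 1 (log axis) of 15 genes in the contralateral and ipsilateral astrocyte library of each of 6 pools, joined by a line, with grey, red and blue names for pan-reactive, A1 and A2 genes. *Lcn2*, *Serpina3n*, *Slc10a6* and *Sphk1* show no overlap between hemispheres, and replicate 6 is high on both sides for *Vim*, *Tgm1* and *Emp1*.

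The A2 class joins lipid enzymes, a transporter and membrane proteins. Of its 11 members in astrocytes, 3 rose without the block and 9 with it, where 0.334% and 1.25% of all genes rose. None fell, and 9 had an unadjusted p under 0.05 (limma). Their median log2 change was 3.34. *Slc10a6* (ENSMUSG00000029321, chromosome 5, 103605711 to 103629403), a transporter of sulphated steroids, had 12 to 96 normalized counts in contralateral astrocytes (median 58.5) and 567 to 954 in ipsilateral ones (median 681.5). All 6 ipsilateral libraries were close together and far above the contralateral range. The change was 3.83 on the log2 scale (standard error 0.40, adjusted p = 0.000682, 0.000581 with the block), in 6 of 6 pools. Its call held without any 1 replicate. *Sphk1* (ENSMUSG00000061878, chromosome 11, 116530925 to 116536674), the kinase that makes sphingosine 1-phosphate, had 0 to 216 (median 17) and 531 to 838 (median 749). Contralateral replicate 4 was at 0 and replicates 1 and 5 at 3, and no contralateral library reached the ipsilateral range. The change was 5.75 on the log2 scale (standard error 1.01, adjusted p = 0.0269, 0.00707 with the block) in 6 of 6 pools, a size that depends on the value added before taking logs. With 0.1 added in place of 1 it was 6.44 and not called (adjusted p = 0.103).

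*Ptx3* (ENSMUSG00000027832, chromosome 3, 66219910 to 66225805) had 15 to 727 normalized counts in contralateral astrocytes (median 42.5) and 441 to 4469 in ipsilateral ones (median 763.5). Contralateral replicate 6 alone overlapped with the ipsilateral range, and replicates 5 and 6 held the highest ipsilateral values. The change was 4.18 on the log2 scale (standard error 0.82, adjusted p = 0.0466, 0.00145 with the block), with 6 of 6 pools higher. The calls of *Ptx3* and *Sphk1* were lost without any 1 of replicates 1 to 5, with adjusted p values from 0.12 to 0.246 and from 0.0935 to 0.142. Without a filter on low values both were lost too (0.179 and 0.118). *Ptx3* was also lost with 0.1 added before taking logs (0.0655), with a filter at a mean of 50 (0.0551) and in the joint fit (0.0561). That fit called *Hspb1* (0.00318), *Tgm1* (0.0386) and *Ptgs2* (0.00665) in astrocytes. *Tgm1*, a transglutaminase that cross-links proteins, had 20 to 3086 (median 57.5) in contralateral and 666 to 3934 (median 1266.5) in ipsilateral astrocytes. A single library made the overlap: 5 contralateral libraries were at 20 to 79 and replicate 6 was at 3086. The change of *Tgm1* was 4.05 in 6 of 6 pools (adjusted p = 0.153, 0.00997 with the block). Without replicate 6 in both hemispheres it was 4.79 (adjusted p = 0.000688). Leaving out only that contralateral library gave 5.09 (adjusted p = 0.000485). That choice was made after its values were seen, and it keeps the ipsilateral library of the same pool. *S100a10*, a partner of annexin, had the same shape, with 195 to 389 in 5 contralateral libraries, 3213 in replicate 6, and 667 to 2654 in ipsilateral astrocytes. Its change was 1.68 in 5 of 6 pools (adjusted p = 0.389, 0.0415 with the block). Without replicate 6 in both hemispheres it was 2.08 (adjusted p = 0.00397), and without the contralateral library alone 2.28 (adjusted p = 0.00327). *Emp1*, a membrane protein of epithelial type, was at 12 to 1735 (median 84.5) and 151 to 1515 (median 409.5), with contralateral replicate 6 the highest of all 12. Its change was 2.30 in 5 of 6 pools (adjusted p = 0.468, 0.0294 with the block). Without replicate 6 in both hemispheres it was not called, and without the contralateral library alone it was 3.13 (adjusted p = 0.043).

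*B3gnt5*, an enzyme of glycosphingolipid synthesis, was at 2 to 27 normalized counts in contralateral astrocytes (median 6) and at 16 to 232 in ipsilateral ones (median 94.5), with 4 contralateral libraries at 8 or less and a change of 3.34 in 6 of 6 pools (adjusted p = 0.11, 0.0111 with the block). *Ptgs2*, the inducible cyclooxygenase, was at 1 to 118 (median 45.5) and 84 to 762 (median 266), with the largest ipsilateral values in replicates 2 and 3. Its change was 3.41 in 6 of 6 pools (adjusted p = 0.239, 0.038 with the block). *Cd109*, a surface protein that binds TGF-beta, had a change of 1.62 (0.734, 0.0678 with the block), and *Tm4sf1*, a membrane protein best known from endothelium, 0.96 (0.806, 0.0958), each in 5 of 6 pools. Both were highest in replicates 5 and 6 of either hemisphere, with *Tm4sf1* at 14917 in contralateral replicate 6 and at 275 in contralateral replicate 1.

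The A1 class includes genes of antigen presentation and interferon response. Of its 9 members in astrocytes, 0 rose without the block (limma) and 1 with it, *Srgn*, where 0.334% and 1.25% of all genes rose. None fell, and 3 had an unadjusted p under 0.05 (limma). Their median log2 change was 0.42. *Srgn*, the core protein of granule proteoglycans, had 67 to 780 normalized counts in contralateral astrocytes (median 150.5) and 200 to 2977 in ipsilateral ones (median 876). The ipsilateral values of replicates 2, 3 and 4 were above all contralateral values, and those of replicates 1, 5 and 6 were not. Its change was 2.05 in 6 of 6 pools (adjusted p = 0.397, 0.0421 with the block). *H2-D1*, a classical MHC class I chain, was at 976 to 3514 (median 2259.5) and 1986 to 5566 (median 3430.5), with a change of 0.66 (0.536, 0.221) and 5 of 6 pools higher. *H2-T23*, a nonclassical class I chain, had a change of 0.42 (0.812, 0.44) in 5 of 6 pools. The interferon-induced GTPases had larger log2 changes than these class I chains. *Gbp2* ranged from 26 to 1984 in contralateral astrocytes (median 113) and from 307 to 1996 in ipsilateral ones (median 445.5), and replicate 6 was at 1984 and 1996. Its change was 1.71 (adjusted p = 0.572, 0.0666 with the block), and that of *Iigp1*, at 0 to 58 and 15 to 136 normalized counts, was 2.89 (0.294, 0.0708), each in 6 of 6 pools. *Fkbp5*, a glucocorticoid-induced co-chaperone, had a change of 0.41 (adjusted p = 0.677) and *Ggta1*, which builds the alpha-gal epitope, 0.17 (0.95), each in 5 of 6 pools. *Fbln5*, a protein of elastic fibres, had -0.08 (0.94), and *Amigo2*, an adhesion molecule, had -0.00 (0.997). *Amigo2* was at 866 to 1918 in contralateral and 641 to 1801 in ipsilateral astrocytes, so its values spread widely without a side.

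Set out by pool, the classes kept an order in astrocytes in most pools but not in all. The median log2 ratio of the pan-reactive genes was 0.84 to 2.24 over the 6 pools, that of the A1 genes 0.14 to 1.61 and that of the A2 genes 0.35 to 4.29. Pool 6 held the lowest A2 and pan-reactive values, 0.35 and 0.84, and there the pan-reactive median was the higher of the 2. The A2 median was above the A1 median in each of 6 pools. In microglia the A1 median ran from -0.73 to 0.50 and the A2 median from 0.20 to 2.33, in pericytes from -0.29 to 0.91 and 1.31 to 2.28, and in endothelial cells from -0.38 to 0.46 and 0.24 to 1.83. A difference between the classes was not tested.

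**Figure D4:**
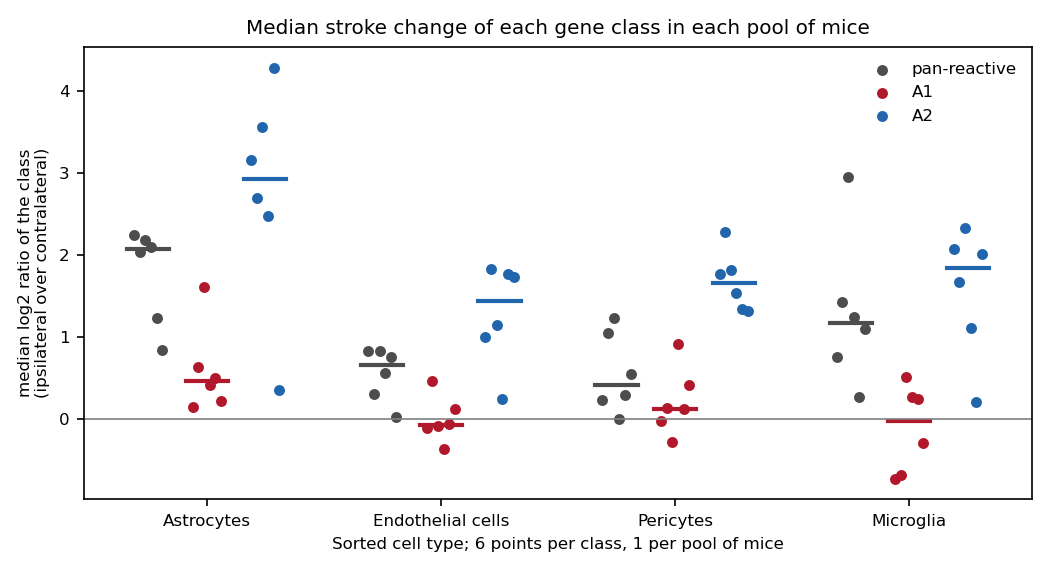
Median log2 ratio, ipsilateral over contralateral, of the 10 pan-reactive, 9 A1 and 11 A2 genes in each of 6 pools of mice (points), for 4 cell types, with a bar at the median of the pools. In astrocytes the bars are at 2.06, 0.45 and 2.93.

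*Cd14*, the endotoxin co-receptor of myeloid cells, rose in astrocytes with the block, and its level differed between replicates as that of the microglia markers did. It had 62 to 4090 normalized counts in contralateral astrocytes (median 607.5) and 490 to 14142 in ipsilateral ones (median 3285.5), a change of 2.54 (adjusted p = 0.502, 0.0338 with the block) in 6 of 6 pools. Its values were lowest in replicates 5 and 6 on both sides (62 and 124, then 490 and 595), where the microglia markers were lowest too. In ipsilateral astrocytes the microglia sum was 6452 to 23360 in replicates 1 to 4 and 2130 and 2268 in replicates 5 and 6. The microglia markers had a median log2 change of 0.06 in astrocytes with 0 of 10 called (limma, 0 with an unadjusted p under 0.05). Their sum was lower after stroke in pools 1, 2, 5 and 6, while *Cd14* was higher in all 6. Neutrophil markers summed to 38 to 1490 in contralateral and 246 to 5504 in ipsilateral astrocytes, with a median change of 3.84 and 5 of 6 tested with an unadjusted p under 0.05. Without the block 0 of them were called (limma), and *Cxcr2*, *S100a8* and *S100a9* were with it. Monocyte and macrophage markers went from sums of 40 to 1528 to sums of 306 to 3433, with a median change of 2.54, and *Lyve1* was called. In ipsilateral pericytes *Cd14* was at 4363 to 37024 in replicates 1 to 4 and at 304 and 297 in replicates 5 and 6. *Srgn* was at 1243 to 7216 in ipsilateral pericytes of replicates 1 to 4 and at 393 and 1043 in replicates 5 and 6, and in ipsilateral astrocytes it was at 335 to 2977 and at 200 and 330, without overlap. In contralateral astrocytes the 2 sets of replicates overlapped. *Tgm1* in contralateral astrocytes was at 3086 in replicate 6, where the ependymal sum of 20822 was the highest, and at 76 in replicate 5, where it was 11372. The part of RNA from other cells in these changes was not tested.

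**Figure D5:**
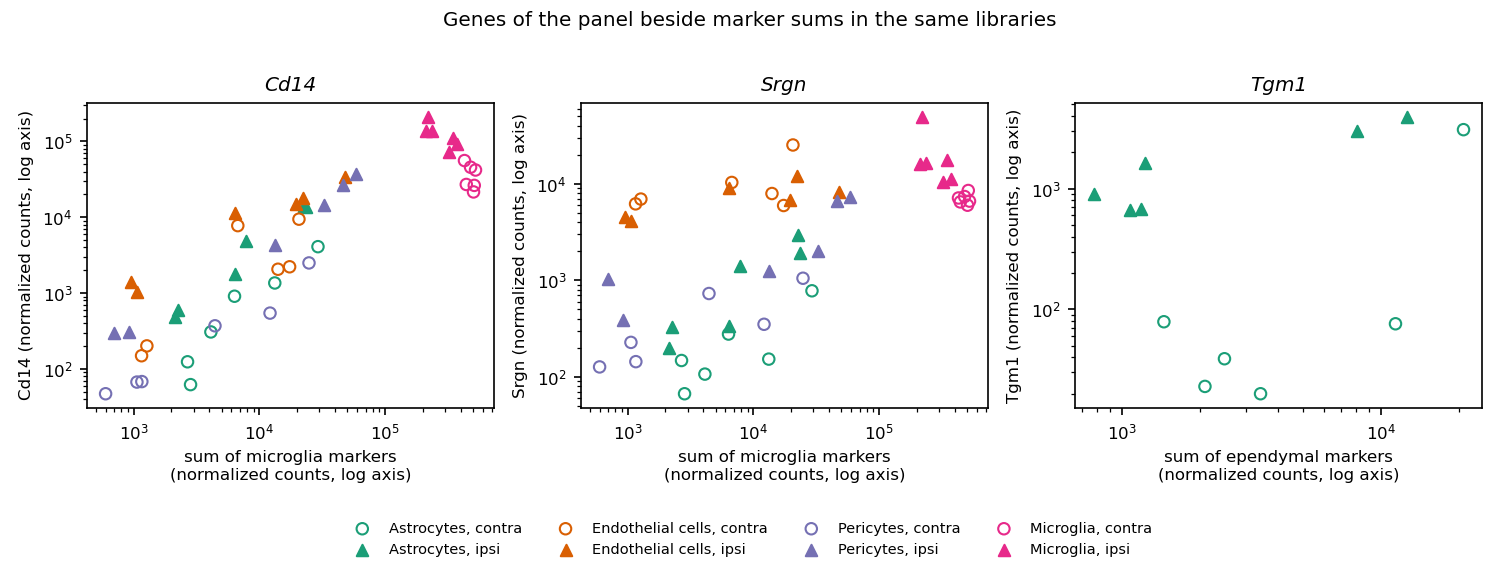
*Cd14* and *Srgn* against the sum of 10 microglia markers in all 48 libraries, and *Tgm1* against the sum of 6 ependymal markers in the 12 astrocyte libraries (normalized counts, log axes; open circles contralateral, filled triangles ipsilateral). Microglia libraries hold 21561 to 210193 of *Cd14*, and astrocyte libraries 62 to 14142.

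Microglia changed more genes than the other cell types, and the panel's counts are given beside the share of all genes. Of 26 members tested, 8 rose and 2 fell, where 4.29% of 13300 genes rose and 6.27% fell. With the block the numbers were again 8 and 2, with *Cp* in place of *Cxcl10*, against 4.54% and 6.5%. The median log2 change of the members was 0.82 and that of all genes -0.18. *Cd14* had 21561 to 55889 normalized counts in contralateral microglia (median 34498) and 72121 to 210193 in ipsilateral ones (median 122924). No library of one hemisphere reached the range of the other, with replicate 2 highest after stroke. The change was 1.80 (standard error 0.30, adjusted p = 0.00229) in 6 of 6 pools. *Ptgs2* was at 493 to 1384 (median 719) and 2401 to 3720 (median 2842.5), also without overlap, a change of 1.96 (standard error 0.23, adjusted p = 0.000164) in 6 of 6 pools. *Vim* went from 142 to 673 normalized counts (median 402.5) to 1009 to 5055 (median 3792.5), by 3.04 (standard error 0.42, adjusted p = 0.000638) in 6 of 6 pools. Its ipsilateral values were lowest in replicates 5 and 6. *Emp1* was low in contralateral microglia, at 0 to 68 (median 15), and at 141 to 1219 (median 860) in ipsilateral ones, with replicates 5 and 6 again lowest. Its change was 5.63 (standard error 0.88, adjusted p = 0.00154) in 6 of 6 pools. In the joint fit of 48 libraries, *Cd14* (adjusted p = 0.406), *Ptgs2* (0.0894), *Srgn* (0.216), *Cxcl10* (0.578) and *Ggta1* (0.135) were not called in microglia.

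*Lcn2* in microglia had 16 to 333 normalized counts on the contralateral side (median 50) and 244 to 1856 on the ipsilateral side (median 759.5). Contralateral replicate 2 lay above the lowest ipsilateral library, replicate 5. The change was 3.72 (standard error 0.65, adjusted p = 0.00287) in 6 of 6 pools. *Sphk1* was at 1 to 65 (median 6.5) and 57 to 322 (median 152), a change of 3.87 (adjusted p = 0.00656) in 6 of 6 pools with a small overlap through contralateral replicate 5. *Srgn* was at 6000 to 8523 (median 6876.5) and 10546 to 49232 (median 16065), by 1.31 (adjusted p = 0.0124) in 6 of 6 pools, and ipsilateral replicate 2 stood far above the rest. That library was also highest in the sums of neutrophil markers (19551, others 4388 to 6977) and lymphocyte markers (1146, others 112 to 438). Its call was lost without replicate 3 or 4 (adjusted p = 0.0583 and 0.0505). *Cxcl10* was at 722 to 2124 (median 1287.5) and 1482 to 5367 (median 2250.5), by 0.98 in 5 of 6 pools, called at an adjusted p of 0.0482 and not with the block (0.0708). That call was lost without any 1 of replicates 1, 2, 3, 5 and 6 (adjusted p from 0.0827 to 0.129). *Cp*, with 73 to 244 and 149 to 568 normalized counts, rose only with the block, by 1.02 in 6 of 6 pools (adjusted p = 0.0968, 0.0487 with the block).

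In microglia 2 of 26 panel genes fell, a transporter and a sugar transferase, where 6.27% of all genes fell (6.5% with the block). Of 10 microglia markers, 5 fell as well (*Csf1r*, *Sall1*, *P2ry12*, *Siglech* and *Tmem119*, and *Cx3cr1* too with the block). The marker sum was 426723 to 522106 in contralateral and 211102 to 374695 in ipsilateral microglia, without overlap. *Slc10a6* was at 101 to 279 normalized counts in contralateral microglia (median 202) and at 5 to 106 in ipsilateral ones (median 64.5), so the ranges touch only at replicate 5. It fell by 2.19 on the log2 scale (adjusted p = 0.0317, 0.0386 with the block), lower in 5 of 6 pools. *Ggta1* was at 819 to 1463 (median 1253) and 275 to 987 (median 633.5), with replicates 5 and 6 the highest ipsilateral libraries. It fell by 1.08 (adjusted p = 0.0306, 0.00942 with the block), lower in 6 of 6 pools. Both calls were lost without any 1 of replicates 1, 3, 4 and 6, with adjusted p values of 0.0767, 0.0957, 0.131 and 0.0552 for *Slc10a6* and 0.078, 0.108, 0.0919 and 0.0572 for *Ggta1*. Of the members that were not called, *H2-T23* had -0.55 (adjusted p = 0.0995, 0.00904 without replicate 2) and *Fkbp5* -0.82 (0.0694, 0.0125 without replicate 5). *Aspg*, *Iigp1*, *Cd109* and *B3gnt5* were below the mean of 10 and were not tested.

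The pericyte libraries held much smooth muscle RNA, and its markers were lower after stroke. The 6 smooth muscle markers summed to 410688 to 646746 in contralateral and 192123 to 398188 in ipsilateral pericytes, without overlap, with 0 of 6 positive and *Myl9* called (*Myh11* too with the block). In every ipsilateral pericyte library this sum was above the pericyte marker sum given earlier. Microglia, neutrophil and monocyte and macrophage markers had median changes of 1.66, 3.75 and 3.12 there. The part of these cells and of smooth muscle in the pericyte levels above and in the results below was not tested.

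In pericytes, all 30 members were tested and 2 rose, *Lcn2* and *Sphk1*, while *S1pr3* fell, where 0.441% of 13597 genes rose and 0.581% fell. The median log2 change was 1.08 for the members and -0.04 for all genes. With the block, 5 rose (*Lcn2*, *Sphk1*, *S100a10*, *Ptgs2* and *Cd14*) and 3 fell (*S1pr3*, *Vim* and *Ggta1*), against 0.684% and 0.978%. *Sphk1* had 67 to 181 normalized counts in contralateral pericytes (median 122) and 437 to 792 in ipsilateral ones (median 468.5). All but replicate 2 of the ipsilateral libraries lay within a narrow range, and none reached down to the contralateral side. The change was 2.20 (standard error 0.32, adjusted p = 0.00873) in 6 of 6 pools. *S1pr3*, the receptor of the lipid that *Sphk1* makes, was at 14740 to 20551 normalized counts (median 16250.5) and 6903 to 11792 (median 8703), without overlap. It fell by 0.90 (standard error 0.16, adjusted p = 0.0176, 0.0373 with the block), lower in 6 of 6 pools. *Lcn2* was at 179 to 481 (median 236.5) and 462 to 3526 (median 1456.5), with the lowest ipsilateral library, replicate 5, inside the contralateral range. The change of *Lcn2* was 2.58 (standard error 0.42, adjusted p = 0.0153, 0.0274 with the block) in 6 of 6 pools. Without replicate 3, 4 or 6, the adjusted p was 0.0765, 0.0779 and 0.0811 for *Lcn2* and 0.0909, 0.0998 and 0.103 for *S1pr3*, and neither was called. In the joint fit of 48 libraries *Sphk1* (adjusted p = 0.204) and *S1pr3* (0.714) were not called either, while *Cxcl10* (0.00508), *Fkbp5* (0.0395), *Srgn* (0.0145), *Emp1* (0.0283) and *Cd14* (0.0353) were.

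*Vim* in pericytes was at 31368 to 57802 normalized counts (median 49588) and 18555 to 36373 (median 24812.5), a change of -0.84 with 6 of 6 pools lower (adjusted p = 0.0787, 0.0344 with the block). The 2 contralateral libraries of replicates 5 and 6 were the lowest of that side and made the overlap. *Ggta1* had a change of -1.08 in the same direction in 6 of 6 pools (adjusted p = 0.0943, 0.0284 with the block). *Amigo2* was at 3428 to 6884 and 1494 to 4565 normalized counts, -1.05 and 6 of 6 pools lower (adjusted p = 0.063, 0.0693 with the block), and was called without replicate 1 (0.0306). *S100a10* was at 301 to 724 (median 397.5) and 588 to 2189 (median 1195), a change of 1.44 in 6 of 6 pools (0.0625, 0.0284 with the block). *Ptgs2* had 1.81 (0.143, 0.0455) and *Cd14* 4.27 (0.144, 0.0372), each in 6 of 6 pools. *Tgm1* had 0 in 5 of 6 contralateral pericyte libraries and 5 in replicate 6, and 8 to 157 in ipsilateral ones (median 99.5). Its adjusted p was 0.0158, but ipsilateral replicate 3, at 8, kept it below the required level, and it was called without replicate 3 (adjusted p = 0.0387).

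Endothelial cells held the most *Lcn2*, and it was the member called there, with the block only. Of 27 members tested, 0 rose and 0 fell without the block (limma), where 0.362% of 13242 genes rose and 0.128% fell, and 10 members had an unadjusted p under 0.05. With the block 1 rose and 0 fell, against 0.378% and 0.174%. The median change of the members was 0.48 and that of all genes -0.03. *Lcn2* was at 1024 to 16239 normalized counts in contralateral endothelial cells (median 5844.5) and 5221 to 48396 in ipsilateral ones (median 27934.5). Replicates 5 and 6 held the lowest ipsilateral values, inside the contralateral range. The change was 1.78 in 6 of 6 pools (adjusted p = 0.272, 0.0279 with the block). *Sphk1* was at 0 to 143 (median 55.5) and 197 to 472 (median 288), without overlap, and its change of 3.39 in 6 of 6 pools was not called (adjusted p = 0.157, 0.156 with the block), but was in the joint fit of 48 libraries (0.0343). *Slc10a6* was at 26 to 194 (median 124.5) and 182 to 547 (median 443), 1.86 in 6 of 6 pools (0.124, 0.0504). *Emp1* was at 813 to 4023 (median 1184) and 1997 to 4680 (median 3319), 1.21 in 6 of 6 pools (0.168, 0.0958). *Gfap* had 0 to 84 and 60 to 166 normalized counts there, far below its level in astrocytes, with a change of 3.15 (0.218, 0.219). *Aspg*, *Ptx3* and *B3gnt5* were below the mean of 10 and were not tested. Markers of other lineages changed in these libraries as well. Neutrophil markers were positive for 6 of 6 tested (median 3.20, *Cxcr2* called), and monocyte and macrophage markers had a median change of 2.55 (*Chil3* called with the block). Smooth muscle markers were positive for 0 of 5 tested (median -2.01, *Myl9* called down with the block). The part of these cells in the endothelial changes was not tested. The sort of endothelial cells had excluded cells with CD45.

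Whether a stroke change differed between astrocytes and another cell type was tested as an interaction in the fit of 48 libraries. All cell types were sorted from the same tissue. The block here was separate for each cell type, so neither fit has a term for a pool shared between cell types. *Slc10a6* was the member that differed without the block: its change in astrocytes exceeded that in microglia by 6.02 on the log2 scale (standard error 0.83, adjusted p = 3.36e-05, 3.72e-05 with the block). It was higher in 6 of 6 pools of astrocytes and lower in 5 of 6 pools of microglia. Against microglia, 1 member was thus higher and 0 lower in astrocytes, where 0.16% and 0.133% of 15003 genes were, and 9 members had an unadjusted p under 0.05 (limma). Against endothelial cells the counts were 0 and 0 (0.0333% and 0.0267% of genes, 7 members with an unadjusted p under 0.05), and against pericytes 0 and 0 (0.00667% and 0%, 8 members). With the block, *Hspb1* had a larger change in astrocytes than in endothelial cells (2.66, adjusted p = 0.000118, 0.0669 without it), pericytes (2.33, 0.000668, 0.179 without) and microglia (1.53, 0.0159, 0.389 without). It was higher after stroke in 6 of 6 pools of astrocytes and lower in 6 of 6 pools of endothelial cells. The endothelial change of *Hspb1* was -0.53 and was not called (limma, adjusted p = 0.614, 0.408 with the block). *B3gnt5* differed from pericytes by 5.97 with the block (adjusted p = 0.0193, 0.075 without it), where it was at 60 to 170 contralateral and 0 to 89 ipsilateral normalized counts. *Gbp2* differed from microglia by 2.27 (0.0409, 0.3 without) and *Vim* by -2.30 (0.0135, 0.207 without). These counts with the block were 1 higher and 0 lower against endothelial cells (0.12% and 0.0533% of genes), 2 and 0 against pericytes (0.0933% and 0.04%), and 3 and 1 against microglia (0.46% and 0.307%).

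The published panel holds 7 more genes, of which 6 were in the table (*Timp1*, *Cd44*, *Osmr*, *Serping1*, *Psmb8* and *Clcf1*; *Ugt1a1* was not listed under that symbol). In astrocytes 2 of 6 rose (0.334% of all genes), and *Osmr* too with the block (1.25%). *Timp1*, an inhibitor of metalloproteinases, had 31 to 245 normalized counts in contralateral astrocytes (median 55) and 270 to 809 in ipsilateral ones (median 701.5), without overlap. It rose by 3.08 (standard error 0.44, adjusted p = 0.00805) in 6 of 6 pools. *Cd44*, the hyaluronan receptor, was at 152 to 1580 (median 199.5) and 879 to 4336 (median 2156), with contralateral replicate 6 alone in the ipsilateral range, and rose by 2.85 (adjusted p = 0.0393) in 6 of 6 pools. *Osmr*, the oncostatin M receptor, had 132 to 1284 and 808 to 3989, a change of 2.53 in 6 of 6 pools (adjusted p = 0.0668, 0.000581 with the block). Elsewhere, *Cd44* rose in pericytes (3.01, adjusted p = 0.0447, 6 of 6 pools), where 0.441% of all genes rose. In microglia, where 4.29% rose, *Cd44* (4.02, 2.08e-05) and *Timp1* (3.37, 0.011) did, each in 6 of 6 pools. With the block, *Timp1* and *Cd44* rose in endothelial cells (2.32 and 3.84, adjusted p = 0.0343 and 0.0468) and *Timp1* and *Psmb8* in pericytes (2.07 and 1.52, 0.0344 and 0.0359), each in 6 of 6 pools, against 0.378% and 0.684% of all genes. *Clcf1*, a cytokine of the IL-6 family, fell in microglia by 1.80 (adjusted p = 0.0165), lower in 6 of 6 pools, where 6.27% of all genes fell.

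Among 13 genes of the STAT3 axis, *Stat3* itself rose in astrocytes (0.334% of all genes did), from 1858 to 3746 normalized counts (median 2986) to 4868 to 6047 (median 5327). The hemispheres did not overlap, and the change was 0.90 (standard error 0.17, adjusted p = 0.0395, 0.00852 with the block) in 6 of 6 pools. With the block (1.25% of all genes) *Il6* and *Osmr* rose as well, *Il6* by 3.70 (adjusted p = 0.0474) from 0 to 53 normalized counts to 21 to 195. In microglia (4.29% of all genes up, 6.27% down) *Osm* rose, from 1298 to 3747 (median 1817) to 3114 to 6405 (median 4144), by 1.16 (adjusted p = 0.00828) in 6 of 6 pools. The receptor chains *Il6ra* and *Lifr* fell there by 1.70 and 1.11 (adjusted p = 0.00261 and 0.00866), lower in 6 of 6 pools. In pericytes *Il6* was the gene of this list that was called, with 108 to 450 normalized counts contralateral and 1235 to 5110 ipsilateral (adjusted p = 0.00379, 6 of 6 pools higher; 0.441% of all genes rose), and 0 of 11 tested were called in endothelial cells (limma, 2 with an unadjusted p under 0.05). Of 9 inducers of the A1 class and their receptors (*Il1a*, *Tnf*, C1q chains and receptors), 0 were called in astrocytes without the block (limma, 2 with an unadjusted p under 0.05), and *Tnfrsf1a* with it (0.99, adjusted p = 0.225, 0.00707 with the block). *Tnfrsf1a*, the main TNF receptor, rose in pericytes from 2037 to 2819 normalized counts to 3445 to 4992, by 0.68 (adjusted p = 0.0265) in 6 of 6 pools, where 0.441% of all genes rose. In endothelial cells and microglia 0 of 9 were called (limma, 0 and 1 with an unadjusted p under 0.05).

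Of 16 other genes linked to reactive astrocytes, 2 rose in astrocytes, *Hmox1* and *Sbno2*, against 0.334% of all genes. *Sbno2*, a nuclear co-regulator induced through STAT3, had 228 to 760 normalized counts (median 430.5) and 1171 to 2185 (median 1783), without overlap, and a change of 2.01 (standard error 0.28, adjusted p = 0.00728) in 6 of 6 pools. *Hmox1*, the enzyme that breaks down heme, was at 190 to 667 in contralateral and 3746 to 5367 in ipsilateral astrocytes. With the block *Thbs1* (2.83, adjusted p = 0.019) and *Chil1* (1.13, 0.0227) were added, each in 6 of 6 pools, against 1.25%. *C3*, often used as the A1 marker, was at 36 to 2627 (median 260) and 80 to 2111 (median 310.5) in astrocytes, high in replicates 5 and 6 of both hemispheres, with a change of 0.26 in 3 of 6 pools (adjusted p = 0.965). In endothelial cells 2 of the 16 rose (*Hmox1* and *Plin2*; 0.362% of all genes rose), and 3 with the block (also *Mt2*; 0.378%). In pericytes 4 rose (*Plin2*, *Mt2*, *Mt1* and *Sbno2*; 0.441%), and 5 with the block (also *Thbs1*; 0.684%). In microglia 6 rose (4.29%), and 7 with the block (also *Mt1*; 4.54%). The smallest adjusted p there was 2.89e-05, for *Thbs1* (2.97) and *Plin2* (2.87), each in 6 of 6 pools. Immediate-early genes, which dissociation can induce, were called for 0 of 12 in astrocytes, endothelial cells and pericytes without the block (limma, 5, 0 and 2 with an unadjusted p under 0.05). The log2 change was positive for 12 of 12 in astrocytes (median 0.63), 3 of 12 in endothelial cells, and 0 of 12 in pericytes and in microglia. With the block, *Atf3* and *Jun* fell in pericytes (by 0.94 and 0.67, adjusted p = 0.0344 and 0.0416, lower in 6 of 6 pools), where 0.978% of all genes fell. In microglia 4 of 12 fell without the block (*Fosb*, *Fos*, *Egr1* and *Jun*), against 6.27% of all genes, and 8 with it (also *Dusp1*, *Atf3*, *Hspa1a* and *Hspa1b*), against 6.5%. *Fos*, the most abundant of them in astrocytes, had a change of 0.62 there (adjusted p = 0.67).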

How the data were processed

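The deposited score values are counts of reads per gene that the authors divided by a size factor of each library (DESeq2 1.18.1) and rounded to whole numbers, so no count model was fitted. Per the submitters' notes and the paper, reads were checked with FastQC, trimmed with Trimmomatic 0.38, aligned to GRCm38 with STAR 2.6.1d and counted with featureCounts 1.6.3 (Subread). Here limma 3.58.1 (lmFit, eBayes with trend) in R 4.3.3 tested log2(score + 1) over all genes with a mean of at least 10 in a cell type, 2-sided, with Benjamini-Hochberg adjustment over all genes tested. Tables and figures were made in Python 3.11.15 (matplotlib 3.10.9, pandas 2.3.3, numpy 2.4.6, scipy 1.17.1). Hemispheres were paired by replicate number, and paired libraries resembled each other more than unpaired ones on average. The code was tested on simulated data. The members and lists were chosen with earlier results of these data known. Named genes are the 30 members, the 7 other panel genes, from each other list up to 4 genes called in astrocytes and up to 2 in each other cell type by smallest adjusted p, and the most abundant gene of some marker lists. *C3*, and further called genes of other lists, were added after their values were seen. Alternatives were other pseudocounts, other filters, the replicate block, a joint fit, rescaling within the cell type, no rule on expression or on fold, and subsets of replicates.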

Additional observations from a re-analysis of the deposited data

Results flagged for a closer look

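In 16 of 215 groups of 6 libraries (7.44%), the highest or lowest library of a member lay far from the other 5, by a rule that chance meets in about 1 in 20 groups. In contralateral astrocytes, replicate 6 stood far above the others for *Hspb1* (1628, others 177 to 371), *Tgm1* (3086, others 20 to 79) and *S100a10* (3213, others 195 to 389). In ipsilateral astrocytes, *Serpina3n* in replicate 1 was at 15027 (others 22782 to 25540). In contralateral endothelial cells, *S1pr3* in replicate 1 was at 2 (others 50 to 139). In ipsilateral endothelial cells, *S1pr3* in replicate 4 was at 0 (others 20 to 76), *Vim* in replicate 1 at 22209 (others 16286 to 17283) and *Ggta1* in replicate 1 at 216 (others 718 to 872). In contralateral pericytes, *Serpina3n* in replicate 5 was at 14 (others 160 to 518) and *Emp1* in replicate 1 at 0 (others 24 to 156). In ipsilateral pericytes, *Gfap* in replicate 4 was at 0 (others 26 to 130), *Sphk1* in replicate 2 at 792 (others 437 to 507) and *Cd109* in replicate 5 at 0 (others 77 to 435). In contralateral microglia, replicate 3 was low for *S1pr3* (0, others 46 to 154) and *Tm4sf1* (23, others 118 to 302). In ipsilateral microglia, *Srgn* in replicate 2 was at 49232 (others 10546 to 17685). A difference between cell types also stood out: the stroke change of *Slc10a6* was 6.02 higher on the log2 scale in astrocytes than in microglia (adjusted p = 3.36e-05), with 6 of 6 pools of astrocytes higher and 5 of 6 pools of microglia lower.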

How the results depend on the processing

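The numbers of members called depended on the replicate block and on which pools were used. With the replicate block, members called up went from 5 to 16 in astrocytes, 0 to 1 in endothelial cells and 2 to 5 in pericytes, and those called down in pericytes from 1 to 3. The block also raised the members with a larger change in astrocytes from 0 to 1 against endothelial cells, 0 to 2 against pericytes and 1 to 3 against microglia, and those with a smaller change than in microglia from 0 to 1. In astrocytes a pseudocount of 0.1 gave 3 called up, no filter on low values 2, and only replicates 1 to 4 gave 9. No filter gave 1 up in pericytes and 0 down in microglia. The joint fit gave 1 up in endothelial cells, 6 up and 0 down in pericytes, and 4 up and 1 down in microglia. Only replicates 1 to 4 gave 1 up and 0 down in pericytes. Each replicate left out in turn, or contralateral astrocyte replicate 6 alone, gave 2 to 9 up in astrocytes, and the single replicates gave 1 to 2 up and 0 to 2 down in pericytes and 0 to 3 down in microglia. With a pseudocount of 10, 1 member had a larger change in astrocytes than in endothelial cells, 1 than in pericytes, and 5 were highest in ipsilateral endothelial cells in place of 3. Only replicates 5 and 6 gave 0 up in astrocytes with a median log2 change of 1.08 in place of 2.08, 6 up in endothelial cells, 0 up and 0 down in pericytes, and 4 up and 0 down in microglia. That subset and the fit without contralateral astrocyte replicate 6 were chosen after seeing the data. The cause was not tested, except that 2 pools leave fewer samples. The changes of single members were counted once for each alternative, so 1 member can stand in several of these counts. Direction and side of the threshold were kept in 1770 such cases. The call was lost in 75 and gained in 51, the sign changed without a call in 40, and a call was reversed in 0.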
